A study of Mus musculus with 4 samples.

Results

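Chemokines are small secreted proteins that direct the migration of leukocytes, and the genes described here are those for chemokines and for their receptors, chosen by gene name. The rule took every non-control probe whose gene name begins with Ccl, Cxcl, Cx3cl, Xcl, Ccr, Cxcr, Cx3cr or Xcr and a digit, and kept those that the scanner software marked as well above background on at least 1 array. Of 55681 probes, 71 carried such a name, and 55 of them were well above background on at least 1 of the 4 arrays, against 63.4% of all probes. The 71 probes stand for 55 genes, of which 43 had a detected probe, 28 of 35 ligands and 15 of 20 receptors. No probe was detected for Ccl20, Ccl22, Ccl26, Cxcl2, Cxcl3, Cxcl15, Cxcl17, Ccr1, Ccr4, Cxcr1, Cxcr2 or Xcr1.

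Gene expression had been measured in interscapular brown adipose tissue (iBAT) and epididymal white adipose tissue (eWAT) to ask what ASK1 does in fat. ASK1, apoptosis signal-regulating kinase 1, is a stress-activated kinase encoded by Map3k5. There were 4 single-colour arrays, 1 per tissue from wildtype (WT) mice and 1 per tissue from ASK1-deficient (ASK1KO) mice, and every array was hybridized with the RNA of 3 males, pooled at an age of 10 weeks under normal conditions. The strain was C57BL/6J, ASK1 was absent from the whole body and not from adipocytes alone, and WT and ASK1-deficient mice had been bred separately, so that genotype and breeding line cannot be told apart. With 1 pool per group there is no spread between mice, and no test was possible within a tissue.

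Chemokines signal through G-protein-coupled receptors. The CC family, made largely by macrophages and stromal cells, recruits monocytes, eosinophils and T cells, and the CXC family recruits neutrophils, activated T cells or B cells. In adipose tissue they are best known from obesity, where Ccl2 (MCP1) and its receptor Ccr2 bring monocytes into white fat. A change in a whole tissue can reflect fewer cells of a type or less RNA per cell, and these cannot be told apart here.

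The 75th percentile of the signal, by which each array was scaled, was 356 in WT iBAT, 371 in ASK1KO iBAT, 673 in WT eWAT and 634 in ASK1KO eWAT. All arrays were on 1 slide with 1 scan time. Map3k5 was checked by 2 probes on chromosome 10 of mm9. At chr10:19860474-19861330 the signal was 448.0 (WT) and 117 (ASK1KO) in iBAT and 701 and 194 in eWAT. At chr10:19862193-19862252 it was 1081 and 1082 in iBAT and 1264 and 836 in eWAT, so that only the former probe separated the genotypes in iBAT. Where these probes lie relative to the disrupted part of the gene was not determined. Summed over 4 brown adipocyte markers and given as multiples of the 75th percentile, the signal was 2442 and 1990.5 in WT and ASK1KO iBAT and 27.2 and 4.14 in eWAT. The white adipocyte marker Lep stood at 0.457 and 0.621 in iBAT and above 10 in both eWAT pools, so the markers separated the tissues in the direction of their labels. Skeletal muscle markers summed to 432 and 426 in iBAT and to 7.98 and 3.93 in eWAT, and hepatocyte markers to 10.5 in WT eWAT against 0.157 to 0.767 on the other arrays.

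More chemokine genes were detected in eWAT than in iBAT, as were more probes of the whole array. A probe well above background was present for 32 genes in WT iBAT, 34 in ASK1KO iBAT, 42 in WT eWAT and 41 in ASK1KO eWAT. Of the 55 detected probes, 38 were well above background on all 4 arrays, 9 on eWAT arrays only (16.4%, against 11.8% of all detected probes) and 0 on iBAT arrays only (against 3.27%). Of all probes, 52.1% and 54.8% were well above background in WT and ASK1KO iBAT and 60.0% and 58.3% in eWAT, where 59.2%, 62.0%, 74.6% and 73.2% of the 71 chemokine probes were. The genes that met the rule on a single array were Cxcr5, in ASK1KO eWAT at a signal of 25.6, and Cxcl5, in WT eWAT at 53.6. Just outside it were Cxcl3 and Cxcl2, at 20.8 and 19.6 in WT eWAT, and Cxcr1, at 18.7 in WT iBAT.

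In iBAT, the ligands Ccl8, Ccl6 and Ccl9 were over 2-fold higher in the ASK1KO pool, and the receptors Cxcr7 and Ccr10 and the ligand Ccl28 were over 2-fold lower. Ratios are ASK1KO over WT on the log2 scale after scaling, and the error beside each is the scanner software's estimate for the spots and not a spread between mice. Ccl8 (MCP2), a monocyte attractant, measured 194 (WT) and 486 (ASK1KO) in iBAT, and its log2 ratio was 1.26 ± 0.21, a 2.40-fold difference. Ccl6, an abundant macrophage chemokine of the mouse, measured 591 (WT) and 1326 (ASK1KO) in iBAT, and its log2 ratio was 1.10 ± 0.20. Ccl9, its neighbour on chromosome 11 and a ligand of Ccr1, had signals of 243 and 520 and a log2 ratio of 1.04 ± 0.21, which was under 2-fold with median centring (0.96), the series table (0.95) and normexp background correction (0.87). Another ligand passed the same size only as a bound. Ccl7 (MCP3) was not well above background in WT iBAT, where its signal was 20.1, and was so at 44.0 in ASK1KO iBAT, which made it at least 2.10-fold higher.

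The largest difference in iBAT was that of Cxcr7, named Ackr3 in RefSeq, an atypical receptor that takes up Cxcl12 without signalling through G proteins. Its signal was 8529.7 in WT iBAT, 3011 in ASK1KO iBAT, 5898 in WT eWAT and 5645 in ASK1KO eWAT. After scaling, the log2 level was 4.58 in WT iBAT and 3.02, 3.13 and 3.16 on the other arrays in that order, so the WT iBAT array stood above the rest. The log2 ratio was -1.56 ± 0.20 in iBAT, a 2.96-fold lower level, and 0.02 ± 0.20 in eWAT. Its ligand Cxcl12, which retains leukocytes and progenitors in tissues, had a log2 ratio of -0.16 over 2 probes in iBAT and -0.05 in eWAT, and Cxcr4, the signalling receptor for Cxcl12, had 0.46 and -0.07.

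Ccl28 and its receptor Ccr10, a mucosal and skin homing pair, were both lower in ASK1KO iBAT. Ccr10 had a signal of 513 in WT iBAT, 237 in ASK1KO iBAT, 64.1 in WT eWAT and 57.6 in ASK1KO eWAT, which gave -1.18 ± 0.21 in iBAT and -0.07 ± 0.25 in eWAT as log2 ratios. Ccl28 had 201 in WT iBAT and between 91.5 and 109.9 on the other 3 arrays, with log2 ratios of -1.20 ± 0.22 and 0.32 ± 0.23. On both probes' scales it was the WT iBAT array that stood highest. Ccl27a, the other ligand of Ccr10, had a log2 ratio of -0.23 in iBAT and 0.09 in eWAT over 3 probes, of which 2 overlap each other and are not independent. Ccr2, the receptor of Ccl2, Ccl7, Ccl8 and Ccl12, was lower while these ligands were higher, with a signal of 108 in WT and 60.4 in ASK1KO iBAT and a log2 ratio of -0.90 ± 0.23.

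Of the 30 chemokine genes measured on both iBAT arrays, 3 were 2-fold or more higher, where 0.835% of all 14377 genes were, and 3 were lower by that much, where 1.02% were, so that 6 differed either way against 1.85%. At 1.5-fold, 7 were higher and 4 lower, against 4.52% and 4.26%. Above 0 were 19 of the 30, against 40.5% of all genes, and the median log2 ratio was 0.28 against -0.07. Ligands and receptors differed in this count, with 15 of 20 ligands above 0 (median 0.44) and 4 of 10 receptors (median -0.07). Among the monocyte-attracting CC ligands and their receptors, 6 of 7 were above 0 with a median of 0.71, and the exception was Ccr2. Some further genes were well above background on 1 iBAT array only. Apart from Ccl7, Ccl4 was at least 1.29-fold and Cxcl1 at least 1.03-fold higher, and Ccr3 was at least 1.76-fold and Ccl1 at least 1.56-fold lower. The genes measured on both iBAT arrays that did not reach 2-fold lay between -0.90 and 0.82. Past 1.5-fold among them were Ccr2, which was lower, and Cxcl10, Ccl12, Ccr9 and Ccl2, which were higher. Ccr9, the gut-homing receptor of Ccl25, measured 27.9 (WT) and 46.4 (ASK1KO) in iBAT, with a log2 ratio of 0.67 ± 0.35, and Ccl25 had -0.17 over 3 probes.

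**Figure D1:**
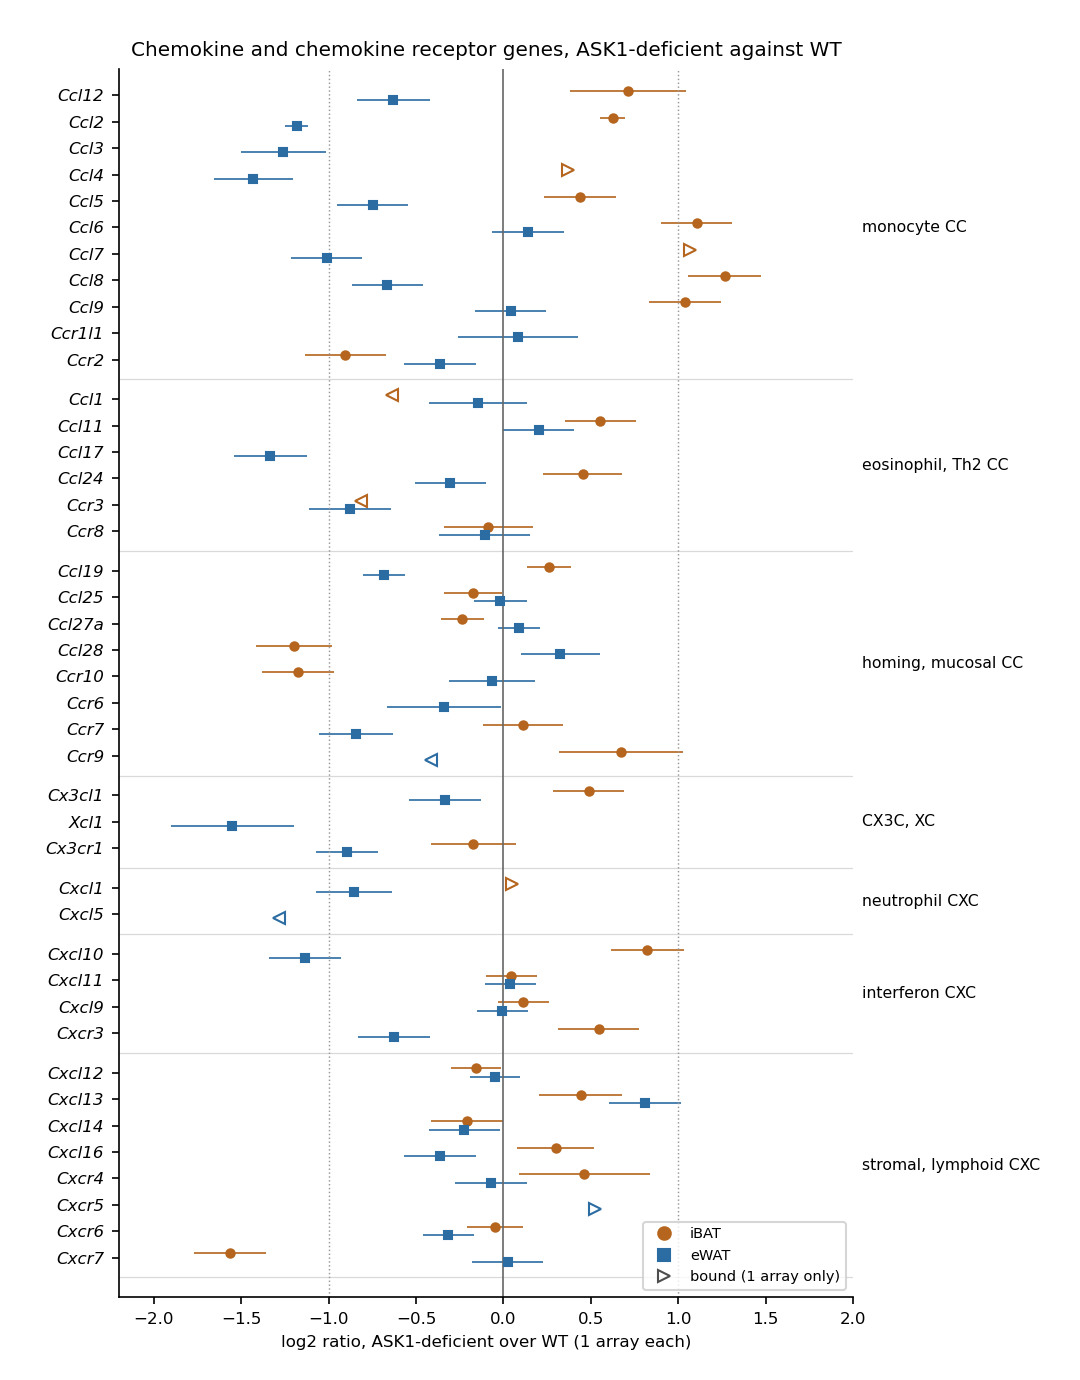
Log2 ratio of ASK1KO over WT (horizontal axis) for the chemokine and receptor genes reported here that have a value or a bound, in iBAT (circles) and eWAT (squares), each 1 array against 1 array, with bars for the scanner software's error, open triangles for bounds of genes detected on 1 of the 2 arrays and dotted lines at 2-fold. Most monocyte CC ligands lie right of 0 in iBAT, and most genes lie left of 0 in eWAT.

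In eWAT the chemokine genes were mostly lower in the ASK1KO pool, and none was measured 2-fold higher. Of the genes measured on both eWAT arrays, 7 ligands were over 2-fold lower, namely Xcl1, Ccl4, Ccl17, Ccl3, Ccl2, Cxcl10 and Ccl7. Ccl2, the prototype monocyte attractant, measured 2599 (WT) and 1078 (ASK1KO) in eWAT, and its log2 ratio was -1.18 ± 0.06. Ccl3 and Ccl4 (MIP1 alpha and beta), made by activated macrophages and lymphocytes, were lower too. Ccl3 measured 142 (WT) and 55.8 (ASK1KO), a log2 ratio of -1.26 ± 0.24, and Ccl4 measured 217 and 75.7, a log2 ratio of -1.43 ± 0.23. Ccl7 had 974 and 455, with a log2 ratio of -1.01 ± 0.20, and -0.99 with the series table. These 4 neighbours in function were lower in the ASK1KO pool by 2.02-fold to 2.69-fold.

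Outside the monocyte attractants, Ccl17, a ligand of Ccr4 made by dendritic cells, measured 376 (WT) and 140.5 (ASK1KO) in eWAT, with a log2 ratio of -1.33 ± 0.21. Xcl1 (lymphotactin), made by NK cells and activated T cells, had 69.3 and 22.3, close to background. Its log2 ratio was -1.55 ± 0.35, and -0.52 with normexp background correction. The receptor of Xcl1, Xcr1, was not detected. Cxcl5, a ligand of the neutrophil receptor Cxcr2, was detected in WT eWAT only, at 53.6 against 6.58, which made it at least 2.44-fold lower. Cxcl1, which acts on the same receptor, had 175 and 91.1 and a log2 ratio of -0.86 ± 0.22.

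Several receptors were lower in ASK1KO eWAT without reaching 2-fold. Ccr7, which guides dendritic and T cells to lymph nodes, measured 287 (WT) and 151 (ASK1KO) in eWAT, a log2 ratio of -0.84 ± 0.21, and its ligand Ccl19 had -0.68 over 3 probes. Cx3cr1, the fractalkine receptor of monocytes, had -0.90 over 2 probes of -1.18 and -0.61, and its ligand Cx3cl1 had -0.34. Ccr3, the eotaxin receptor, had 133 and 68.3 and -0.88 ± 0.23. The eotaxins Ccl11 and Ccl24 did not share that size, at 0.20 and -0.30. Ccr2 had 1566 and 1146 and a log2 ratio of -0.36 ± 0.20. The gene furthest above 0 was Cxcl13, the B cell attractant of lymphoid follicles, with a signal of 229 in WT and 378 in ASK1KO eWAT and a log2 ratio of 0.81 ± 0.21. Its receptor Cxcr5 was detected only in ASK1KO eWAT, at least 1.44-fold higher, and Ccr9 only in WT eWAT, at least 1.33-fold lower in the ASK1KO pool.

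Of the 40 chemokine genes measured on both eWAT arrays, 7 were 2-fold or more lower, against 0.865% of all 15377 genes, and 0 were higher by that much, against 0.286% (7 either way, against 1.15%). At 1.5-fold, 17 were lower and 1 was higher, against 2.67% and 1.38%. Below 0 were 31, where 45.9% of all genes were, and the median log2 ratio was -0.34 against 0.02. Here ligands and receptors had like counts, with 20 of 27 ligands (median -0.34) and 11 of 13 receptors (median -0.34) below 0. The monocyte CC group had 9 of 12 below 0 and a median of -0.71, and its exceptions were Ccl6, Ccl9 and Ccr1l1, at 0.14, 0.04 and 0.08. The stromal and lymphoid-tissue CXC genes had a median of -0.07, as had the lymphoid homing and mucosal CC genes. With normexp background correction only 2 genes were 2-fold apart in eWAT (Ccl2 and Ccl17) and 2 in iBAT (Ccl8 and Cxcr7), and with only the genes well above background on all 4 arrays 3 were in eWAT.

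Opposite genotype differences of 1.5-fold or more, higher in ASK1KO iBAT and lower in ASK1KO eWAT, were found for 4 ligands measured on all 4 arrays. They were Ccl2, Ccl8, Ccl12 and Cxcl10, which are 13.8% of the 29 chemokine genes measured on all 4 arrays, where 0.270% of all 14059 genes did so. No chemokine gene did the reverse, where 0.0854% of all genes did. Ccl7 is not counted among the 4 because its iBAT ratio is a bound (at least 2.10-fold higher, beside -1.01 in eWAT). Ccl12 (MCP5), a Ccr2 ligand of the mouse, had a signal of 33.7 in WT iBAT, 57.7 in ASK1KO iBAT, 333 in WT eWAT and 202 in ASK1KO eWAT. Its log2 ratios were 0.71 ± 0.33 and -0.63 ± 0.21. Ccl8 had 3941 in WT and 2341 in ASK1KO eWAT, and its log2 ratio there was -0.66 ± 0.20 against 1.26 in iBAT. For both ligands the ASK1KO iBAT level stayed below either eWAT level.

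Cxcl10 (IP-10), an interferon-induced ligand that attracts T cells through Cxcr3, had a signal of 185 in WT iBAT, 342 in ASK1KO iBAT, 616 in WT eWAT and 264 in ASK1KO eWAT. Its log2 ratios were 0.82 ± 0.21 and -1.14 ± 0.21. A second Cxcl10 probe was well above background only in ASK1KO eWAT, at 26.6 against 14.8 in WT eWAT, which made it higher there by at least 0.58 on the log2 scale, the opposite direction to the first probe. With no filter on dim probes, so that both probes count, the ratios of Cxcl10 were 0.58 and -0.10. Cxcr3 leaned the same ways as its ligand, with 71.0 and 108 in iBAT and 614 and 375 in eWAT and log2 ratios of 0.54 ± 0.23 and -0.62 ± 0.20, short of 1.5-fold in iBAT. Cxcl9, the neighbouring Cxcr3 ligand, had log2 ratios of 0.11 and -0.01 over 2 probes.

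Ccl2 was printed 10 times on each array, which shows how well a spot repeats. In WT iBAT the 10 spots ran from 63.0 to 88.5 with a median of 83.4, and in ASK1KO iBAT from 121 to 136 with a median of 128. In WT eWAT they ran from 2439 to 2746 and in ASK1KO eWAT from 1027 to 1103. No spot of one genotype overlapped those of the other in either tissue. Averaged over the 10 spots, iBAT gave a log2 ratio of 0.63 (SD 0.16) and eWAT one of -1.18 (SD 0.045). Over all probes with at least 5 usable spots the log2 ratio had a median SD of 0.09 (iBAT) and 0.06 (eWAT), and this covers the array and not the mice.

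**Figure D2:**
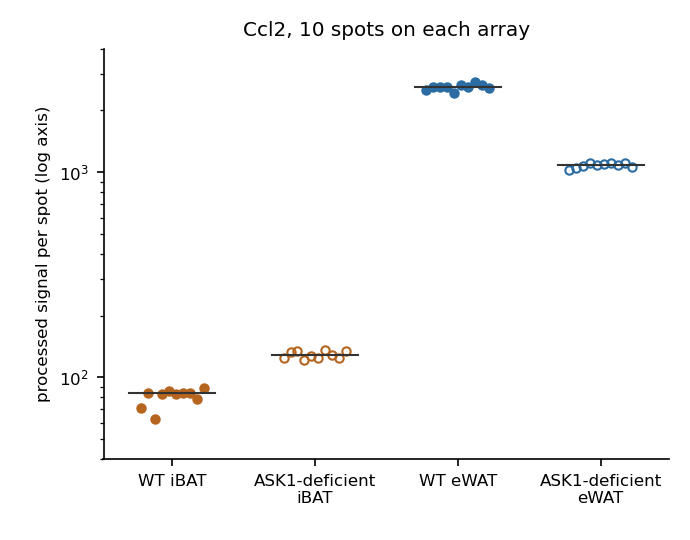
Processed signal (log axis) of the 10 Ccl2 spots on each of the 4 arrays, with a line at the median of each array. Filled points are WT and open points ASK1KO; the genotypes are apart in both tissues, in opposite directions.

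Across the 29 genes, 13 (44.8%) were above 0 in iBAT and below 0 in eWAT, where 18.0% of all genes were, and 3 were the other way round, against 32.6%. Whether the effect of genotype differed between the tissues could not be tested for any gene, since each of the 4 groups is 1 array. Under the 10 alternative settings Ccl8 stayed among the opposite genes in each of them and Cxcl10 in all but the one without a filter on dim probes. Ccl12 left the set with normexp, and Ccl2 with normexp, median centring and the series table.

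The promoters of Cxcl10, Ccl8 and Ccl12 are shown for the opposite ligands. That of Ccl9, which held an NF-kB match and was not an opposite gene, is shown beside them. They were searched because inflammatory chemokine genes are classical targets of NF-kB, the transcription factor of inflammation. The sequences are the 250 bases before the transcript start in RefSeq on GRCm38.p6, 5′ to 3′ on the strand of the gene, in lower case with matches to the NF-kB consensus in capitals. Cxcl10 lies at chr5:92348890-92349139 on the minus strand, Ccl9 at chr11:83578637-83578886 on the minus strand, Ccl8 at chr11:82114935-82115184 and Ccl12 at chr11:82101595-82101844, both on the plus strand. The promoters of several members were not searched here, among them those of Ccl2, Ccl4, Ccl5, Ccl7, Cxcl5 and Ccr10.
Cxcl10: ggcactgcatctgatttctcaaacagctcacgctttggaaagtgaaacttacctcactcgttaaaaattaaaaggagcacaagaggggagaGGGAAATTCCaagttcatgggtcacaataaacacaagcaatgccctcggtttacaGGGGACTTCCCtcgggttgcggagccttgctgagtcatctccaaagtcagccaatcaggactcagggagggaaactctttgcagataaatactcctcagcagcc
Ccl9: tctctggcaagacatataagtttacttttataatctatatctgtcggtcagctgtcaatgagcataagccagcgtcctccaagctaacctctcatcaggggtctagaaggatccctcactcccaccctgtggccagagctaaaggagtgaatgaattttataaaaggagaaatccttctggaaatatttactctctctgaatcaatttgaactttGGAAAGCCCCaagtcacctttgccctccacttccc
Ccl8: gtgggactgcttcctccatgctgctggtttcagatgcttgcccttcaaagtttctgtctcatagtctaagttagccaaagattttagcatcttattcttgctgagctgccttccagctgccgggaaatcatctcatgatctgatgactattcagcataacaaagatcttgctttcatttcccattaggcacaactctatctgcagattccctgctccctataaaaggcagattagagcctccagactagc
Ccl12: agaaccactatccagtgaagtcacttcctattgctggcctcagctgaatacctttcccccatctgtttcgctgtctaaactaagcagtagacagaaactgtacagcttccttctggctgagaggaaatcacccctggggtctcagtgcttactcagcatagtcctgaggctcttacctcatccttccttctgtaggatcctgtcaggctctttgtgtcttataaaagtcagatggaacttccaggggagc

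The Cxcl10 promoter held NF-kB matches in 2 places, 1 starting 159 bases before the transcript start and overlapping matches that start 104 and 103 bases before it, and it also held TGANTCA (the AP-1 element) and the interferon-response element. The Ccl9 promoter held 1 NF-kB match, 35 bases before the start, and TGANTCA. The Ccl8 and Ccl12 windows held none of the 4 motifs searched. Ccl3, Ccl6, Ccl17, Ccl28, Cxcr7 and Xcl1, also 2-fold apart by genotype in a tissue, had no NF-kB match in their windows. Over the 44 promoter windows of 300 bases that matched 40 of the members, searched on both strands, 25% held the NF-kB consensus, against 8.46% of 32851 windows of the same length. For TGANTCA the shares were 18.2% and 7.81%, for the interferon-response element 6.82% and 3.44%, and for TTCNNNGAA (the STAT element) 9.09% and 8.30%. The NF-kB matches were those of Ccl1, Ccl9, Ccl20, Ccl27a, Ccr1, Ccr3, Ccr6, Cxcl1, Cxcl2, Cxcl3 and Cxcl10, of which 4 (Ccl20, Cxcl2, Cxcl3 and Ccr1) were not detected in these pools. A match in these letters is a description and not a binding site.

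Many chemokine genes lie in clusters, and those of chromosome 11 held 7 of the 30 genes measured in iBAT and 11 of the 40 in eWAT. Of these, 3 of 7 in iBAT and 4 of 11 in eWAT were 2-fold apart, where 1.85% and 1.15% of all genes were. Of all measured chemokine genes, 6 of 30 and 7 of 40 were that far apart. The genes from Ccl2 to Ccl1, with probes at chr11:81850650-81990510 on mm9, were in the order Ccl2, Ccl7, Ccl11, Ccl12, Ccl8 and Ccl1. In iBAT 4 of them were measured and all 4 were above 0, from 0.55 for Ccl11 to 1.26 for Ccl8, whereas in eWAT 5 of 6 were below 0, from -1.18 for Ccl2 to -0.15 for Ccl1. Ccl11 (eotaxin), which attracts eosinophils, was the exception in eWAT, at 0.20. Genes from Ccl5 to Ccl4, at chr11:83339296-83478111, differed among themselves in eWAT. Ccl9 and Ccl6 in the middle were at 0.04 and 0.14, while Ccl5, which attracts T cells, was at -0.75 and Ccl3 and Ccl4 at the far end were at -1.26 and -1.43. In iBAT the 3 measured genes of this cluster were all above 0, and Ccl5 had signals of 441 and 622 and a log2 ratio of 0.44 ± 0.20. In the receptor cluster of chromosome 9, with probes at chr9:123680935-124041306, 1 of 3 measured genes was above 0 in iBAT (Ccr9) and 4 of 5 were below 0 in eWAT.

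**Figure D3:**
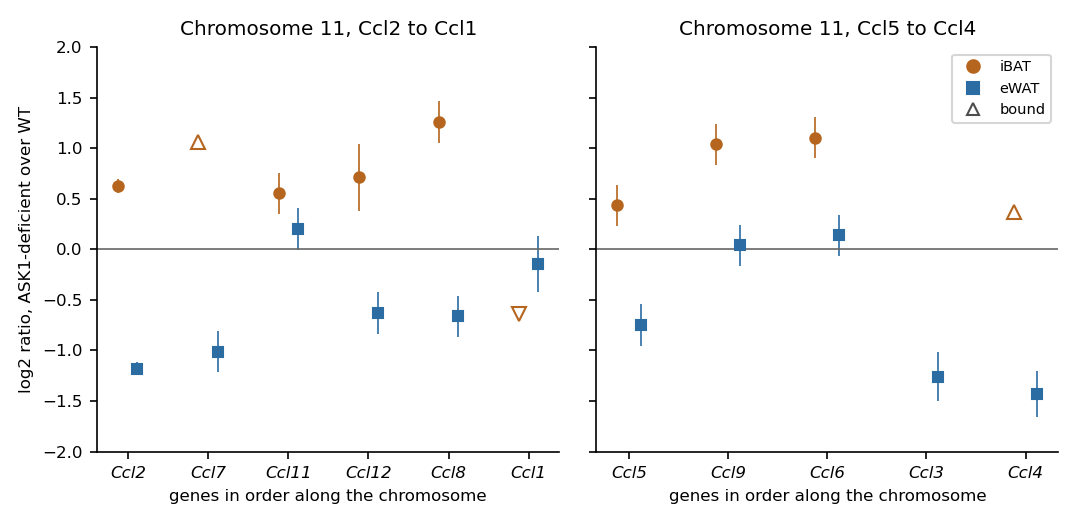
Log2 ratio of ASK1KO over WT (vertical axis) for the genes of the chromosome 11 clusters in their order along the chromosome, in iBAT (circles) and eWAT (squares), with bars for the scanner software's error and open triangles for bounds. Ccl2, Ccl12 and Ccl8 lie above 0 in iBAT and below 0 in eWAT, and Ccl9 and Ccl6 lie near 0 in eWAT.

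The level of Cxcl11, the remaining interferon-induced Cxcr3 ligand, was read by 2 probes. The probe at chr5:92788567-92788626 on mm9 had signals of 238863 in WT iBAT, 234135 in ASK1KO iBAT, 270197 in WT eWAT and 253356 in ASK1KO eWAT. Bases 15 to 44 of that probe are shown because the 20 bases in capitals also occur in the promoter windows of 14 genes; whether its signal comes from Cxcl11 alone was not tested. The other Cxcl11 probe shared no such stretch, and its signals were 9574 and 11325 in iBAT and 18697 and 18643 in eWAT, with log2 ratios of 0.18 and 0.08.
Cxcl11 probe: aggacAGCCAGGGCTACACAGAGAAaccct
Stretches of 20 bases from this probe occurred in the promoters of 21 other genes and in 7 probes of other genes, and from no other member probe in more than 1 of either. Without Cxcl11 the group of interferon-induced ligands and their receptor had a median log2 ratio of 0.54 in iBAT and -0.62 in eWAT. In both tissues that median was the value of the receptor Cxcr3. The ligand Cxcl9 was at 0.11 and -0.01, and Cxcl10 at 0.82 and -1.14. With Cxcl11 the medians were 0.33 and -0.32.

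Some lists of immune cell markers lay on the same side of 0 as the chemokine genes and others did not, and their part in the results was not tested. In iBAT all 10 measured macrophage markers were above 0 with a median log2 ratio of 0.69, close to the 0.71 of the monocyte CC group, and their summed level went from 46.3 to 59.5 times the 75th percentile. Interferon-stimulated genes had 8 of 8 above 0 with a median of 0.47, and fibroblast markers 5 of 5 with 0.36. Neutrophil markers had 2 of 5 above 0 in iBAT with a median of -0.16, T cell markers 1 of 5 with -0.05 and dendritic cell markers 2 of 3 with 0.17. In eWAT the macrophage markers had a median of -0.02, with summed levels of 193 and 185. The interferon-stimulated genes had 6 of 8 above 0 there with a median of 0.09, whereas Cxcl10 and Cxcr3 were below 0. Other leukocyte lists were lower there, with medians of -0.91 for 3 NK cell markers, -0.56 for 6 neutrophil markers, -0.48 for 5 T cell markers and -0.45 for 4 dendritic cell markers. The NK cell sum went from 2.97 to 1.45, the neutrophil sum from 5.09 to 3.66, the T cell sum from 6.83 to 5.98 and the dendritic cell sum from 3.44 to 2.37. Brown adipocyte markers were lower in both tissues, with medians of -1.41 over 4 genes in iBAT and -2.23 over 3 in eWAT, as were 3 hepatocyte markers in eWAT with -4.26. Not detected on any array were Ngp of the neutrophil list, Cd8a of the T cell list and Epx of the eosinophil list, and 2 NK cell markers (Ncr1 and Klrb1c) were not well above background in iBAT.

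**Figure D4:**
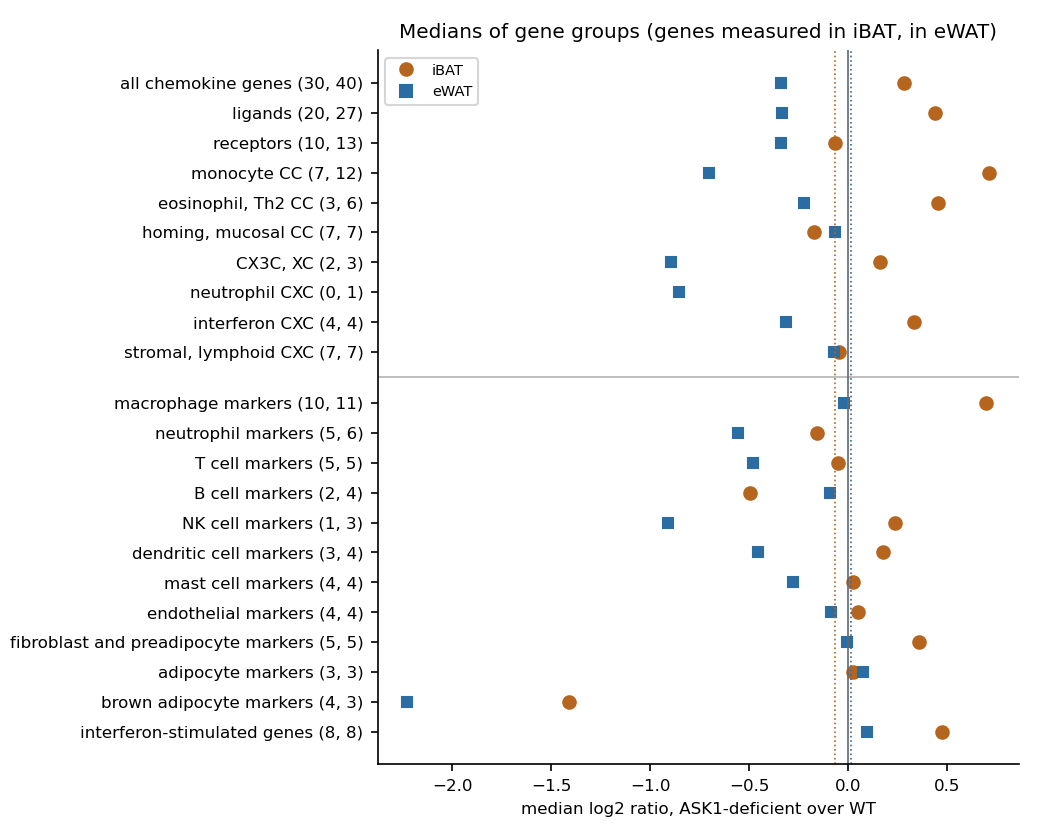
Median log2 ratio of ASK1KO over WT (horizontal axis) of the chemokine gene groups (above the line) and of cell marker and interferon-stimulated lists (below it), in iBAT (circles) and eWAT (squares), with the genes measured in iBAT and in eWAT in brackets and dotted lines at the medians of all genes. In iBAT the monocyte CC group and the macrophage markers lie at 0.71 and 0.69, and in eWAT at -0.71 and -0.02.

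Genes of the chemokine system that the name rule left out were counted the same way. Among 10 atypical receptors and chemokines with other names, 7 of 8 measured were above 0 in iBAT (median 0.19) and 7 of 10 below 0 in eWAT (median -0.08), and 0 measured genes reached 2-fold, where 1.85% and 1.15% of all genes did. Rarres2 (chemerin), an adipocyte-secreted attractant, had the highest value of these in iBAT, 0.52, and -0.04 in eWAT. Of the genes that carry or trim the signal, 10 of 14 were above 0 in iBAT (median 0.13) and 14 of 17 below 0 in eWAT (median -0.07), again with 0 measured genes at 2-fold. Rgs14, a regulator of G-protein signalling, was highest in iBAT at 0.91 and had -0.32 in eWAT, and the leukocyte integrin Itgb2 had 0.76 and -0.16. Among the cytokines and other inflammatory inducers, 3 of 4 were above 0 in iBAT (median 0.26) and 4 of 6 below 0 in eWAT (median -0.26). Of the 6 measured on both eWAT arrays only Tnf was lower by over 2-fold, where 0.865% of all genes were. It had signals of 73.2 (WT) and 29.5 (ASK1KO) and a log2 ratio of -1.22, and it was not detected in iBAT. Of the 13 genes of this list 11 were well above background in WT eWAT and 6 in ASK1KO eWAT. Of all probes, 60.0% and 58.3% were. The cytokine Il1b had a signal of 122 in WT eWAT and was not well above background in ASK1KO eWAT, which made it at least 5.52-fold lower, and Ifng, at 70.4, was at least 3.20-fold lower. Il1a, Il6 and Ptgs2 were dim in WT eWAT, at 35.1, 34.2 and 32.0, where the lowest detected signal was 18.9. They were at least 1.59-fold, 1.53-fold and 1.45-fold lower in ASK1KO eWAT. The part of these cytokines and inducers in the lower chemokine levels of that pool was not tested.

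Between the tissues, most chemokine genes were lower in iBAT than in eWAT in both genotypes. In WT mice 16 of 32 measured genes were 2-fold or more lower in iBAT, where 13.4% of all 14236 genes were, and 5 were higher by that much, where 16.4% were (21 either way, against 29.8%). In ASK1KO mice 15 of 33 were lower and 5 higher, against 12.6% and 12.3% of 14513 genes (20 either way, against 25.0%). The median log2 ratio of iBAT over eWAT was -1.07 in WT and -0.85 in ASK1KO mice, against 0.12 and 0.03 over all genes. In the fit of genotype and tissue together (limma, 4 arrays, 1 residual degree of freedom, Benjamini-Hochberg adjustment over 14057 genes), 23 of 29 chemokine genes passed an adjusted p of 0.05 for tissue, 16 of them lower and 7 higher in iBAT, where 55.5% of all genes passed, 24.6% lower and 30.8% higher. The error of that fit is the disagreement of the genotype effect between the tissues and not the spread between mice.

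Ligands of the monocyte and eosinophil groups were furthest apart. Ccl6 had log2 ratios of iBAT over eWAT of -4.73 in WT and -3.76 in ASK1KO mice, with eWAT signals of 29680 and 30772, and its tissue difference in limma's fit was -4.25 ± 0.24 (SE, adjusted p = 5.36e-05). Ccl24 (eotaxin 2), which attracts eosinophils, had signals of 80.8 and 115 in iBAT and 3818 and 2909.9 in eWAT, with -4.26 ± 0.21 (SE, adjusted p = 3.36e-05 in limma's fit). Ccl9 measured 243 and 520 in iBAT and 9709 and 9400.3 in eWAT, and limma's fit gave -3.90 ± 0.25 (SE, adjusted p = 7.41e-05). Ccl2, Ccl8 and Ccr2 were also lower in iBAT, at -3.20, -2.46 and -3.20 on the log2 scale in that fit (limma adjusted p = 0.000863, 0.00319 and 5.24e-05). Cxcr4 and Ccl12 completed the 8 lowest genes in WT, at -2.48 and -2.38, and were at -1.10 and -1.18 with normexp background correction. Summed macrophage markers stood at 46.3 and 59.5 in iBAT against 193 and 185 in eWAT. Their median log2 ratio of iBAT over eWAT was -3.06 in WT and -2.46 in ASK1KO mice. In WT 9 of 10 were 2-fold or more lower in iBAT, where 13.4% of all genes were. In ASK1KO mice 10 of 11 were, against 12.6%. Itgam, the exception, was at -0.01 and 0.16 and had the highest iBAT signals of the list. The part of these markers in the chemokine differences was not tested.

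A small set was higher in iBAT. Cxcl14, a broadly expressed epithelial and stromal chemokine, had signals of 2665 and 2407 in iBAT and 699 and 563 in eWAT, and its tissue difference was 2.86 ± 0.14 (SE, limma adjusted p = 3.68e-05). Its ratios in WT and ASK1KO mice, 2.85 and 2.87, were close to each other. Ccr10 was higher in iBAT by 3.37 ± 0.27 (SE, limma adjusted p = 0.000158), with 3.92 in WT and 2.81 in ASK1KO mice. Ccl28 had 2.03 in WT and 0.51 in ASK1KO mice, and Cxcr7 1.45 and -0.14, which leaves Cxcr7 higher in iBAT in WT alone. Ccl25, a thymus and gut chemokine, had 1.21 and 1.15. Ccr8, Ccr9 and Ccl27a were at 0.97, 0.85 and 0.75 in WT. Without scaling between arrays the median of all genes moved from 0.12 to -0.80 in WT and from 0.03 to -0.75 in ASK1KO mice, and these genes moved down with it. In WT Ccr9 and Ccl27a then turned to -0.07 and -0.18, Ccl25 was 0.29, Ccr8 0.05 and Cxcr7 0.53. In ASK1KO mice Ccl28 turned to -0.26 and Ccl27a, at 0.42 when scaled, to -0.35, and Ccl25 was 0.37. The lowest values of Cxcl14 and Ccr10 over the settings tried were 1.93 and 2.80 in WT and 2.10 and 1.92 in ASK1KO mice.

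For 21 of the 29 genes measured on all arrays the tissue difference was smaller in ASK1KO than in WT mice, 72.4% against 61.2% of all genes. Cxcl10 changed sides, from -0.81 in WT to 1.15 in ASK1KO mice, and so did Ccr7 (-0.88 and 0.08) and Cxcr7 (1.45 and -0.14). At least 2-fold lower in iBAT in both genotypes were 11 genes (Ccl2, Ccl6, Ccl8, Ccl9, Ccl11, Ccl12, Ccl24, Ccr2, Cxcr3, Cxcr4 and Cxcr6), 10.4% being the share of all genes, and at least 2-fold higher were Ccl25, Ccr10 and Cxcl14, against 10.8%. For the genotype term of the same fit 0 of 29 chemokine genes passed, as 0 of all 14057 genes did (0.00%), and the lowest adjusted p in limma was 0.652 for Cxcl13. An unadjusted p under 0.05 in limma was found for 4 chemokine genes, Ccr2, Ccl6, Cxcl13 and Cx3cr1, where 770 of all genes (5.48%) had one. Cxcl13 was 0.63 ± 0.16 (SE) higher in ASK1KO tissue in that fit, and Ccr2 was lower, at -0.63 ± 0.18 (SE).

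**Figure D5:**
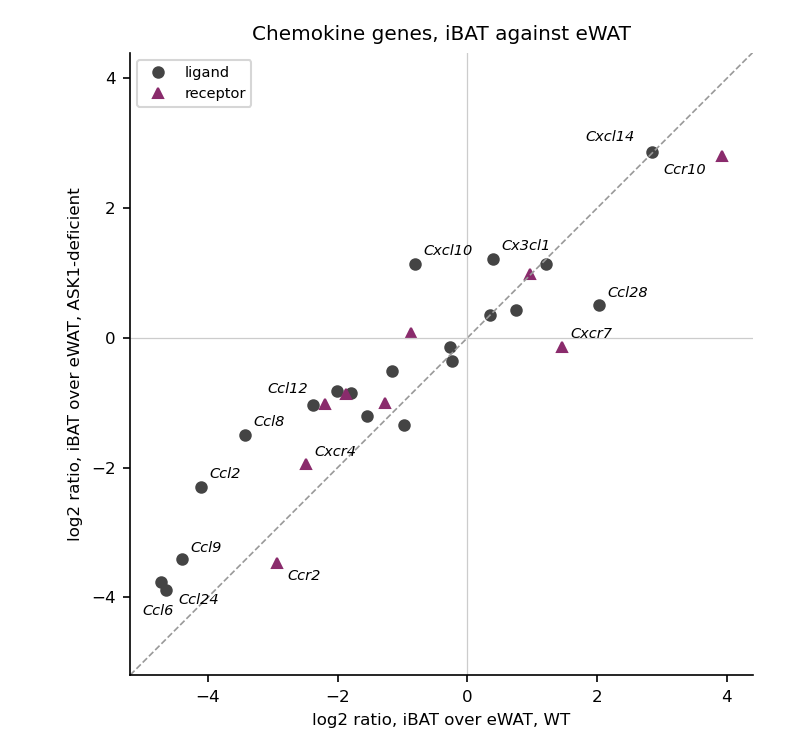
Log2 ratio of iBAT over eWAT in WT (horizontal axis) and ASK1KO mice (vertical axis) for the 29 chemokine genes measured on all 4 arrays, with ligands as circles, receptors as triangles and a dashed line at equal ratios. Ccl6, Ccl24, Ccl9, Ccl2 and Ccl8 lie far below 0 and above the line, and Ccr10, Ccl28 and Cxcr7 lie below the line.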

How the data were processed

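Genotype and tissue of each array came from its label. The authors deposited the output of Agilent Feature Extraction 10.7.3.1 for each array (annotation on mm9). The processed signal that the authors deposited is a linear intensity, detrended over the slide, with surrogates for dim spots and no scaling between arrays, beside flags for detection, outliers and saturation. A deposited series table of signal values equals the processed signal divided by 1 constant per array that sets the median to 1. After control and outlier spots were removed, spots of a probe were averaged as log2 values and the 75th percentile over all probes was subtracted. Each gene's ratio is the mean over probes detected on both arrays. Where only 1 of the 2 arrays detected it, the ratio is a bound against the dim probe itself or the lowest detected level, whichever was higher. Of 34844 gene names, 22147 matched RefSeq, giving 22066 genes. Probe positions were not assigned to exons. Named genes were those at least 2-fold apart by genotype, the 12 largest differences in each genotype comparison, the 8 highest and 8 lowest between WT tissues, the opposite genes and the partners of these. The members, lists and rules were chosen with earlier results of these data known. The values of 1 member are not reported here, though counts and medians include it. Only the 2-fold rule and the genotype term of limma's fit were tested on simulated gene values, with 200 changed genes. Alternatives tried were normexp (offset 50), quantile, cyclic loess, median centring, a percentile over detected probes, no scaling, the deposited series table, no filter or a stricter one on dim probes, 1 brightest probe per gene and a 1.5-fold threshold. Precision is limited by having 4 arrays, and p-values rest on single pools. Software was R 4.3.3 with limma 3.58.1, and Python 3.11.15 with pandas 2.3.3, numpy 2.4.6 and matplotlib 3.10.9.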

Additional observations from a re-analysis of the deposited data

Results flagged for a closer look

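Among the genes measured on all 4 arrays, the genotype ratios of 4 ligands lay on opposite sides of 0 in the tissues, at least 1.5-fold each way, and the differences were not tested because each group is 1 array. The log2 ratio in iBAT minus that in eWAT was 1.96 for Cxcl10 (0.82 and -1.14), 1.93 for Ccl8 (1.26 and -0.66), 1.81 for Ccl2 (0.63 and -1.18) and 1.34 for Ccl12 (0.71 and -0.63). With no filter on dim probes, which brings in the second Cxcl10 probe, the ratios of Cxcl10 became 0.58 and -0.10.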

How the results depend on the processing

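Counts of chemokine genes at least 2-fold apart changed with the background correction and the filter. In iBAT the count of 6 became 2 with normexp, 12 with no filter on dim probes and 11 at 1.5-fold. In eWAT the count of 7 became 2 with normexp, 3 with only genes well above background on all 4 arrays and 18 at 1.5-fold. Between tissues the count of 21 in WT became 37 with no filter, and that of 20 in ASK1-deficient mice became 11 with normexp. The 23 genes called for tissue became 35 with no filter.

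Every median kept its sign. In iBAT the median of 0.28 became 0.12 with normexp, 0.38 with the 75th percentile over detected probes and 0.11 with no filter. In eWAT the median of -0.34 became -0.43 with no scaling and -0.22 with only genes well above background on all 4 arrays. Between tissues in WT, -1.07 became -0.53 with normexp, -1.99 unscaled, -1.20 with the 75th percentile of detected probes and -1.17 with genes well above background on all 4 arrays. In ASK1-deficient mice, -0.85 became -0.43 with normexp, -1.62 with no scaling, -0.94 with median centring, -0.92 with the series table and -0.50 with no filter. No scaling moved the median of all genes from 0.12 to -0.80 in WT and from 0.03 to -0.75 in ASK1-deficient mice. For genes named in the genotype comparisons, 28 of 119 values in iBAT and 29 of 133 in eWAT moved by more than the spread between spots, and 0 changed sign. Between tissues 62 of 159 values moved in WT and 72 of 150 in ASK1-deficient mice, and without scaling Ccl27a and Ccr9 changed sign in WT and Ccl27a and Ccl28 in ASK1-deficient mice.

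No paired analysis was possible because each group has 1 array, and leaving out a replicate was not run for the same reason. Dim members such as Xcl1, Ccl12 and Ccr9 lie near background, which limits what their ratios show.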

Other observations

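The marker lists not described above were as follows. Mast cell markers had a median log2 ratio of 0.03 in iBAT and -0.28 in eWAT, B cell markers -0.50 and -0.09, endothelial markers 0.05 and -0.09, erythrocyte markers -0.33 and -0.19, adipocyte markers 0.02 and 0.07, and skeletal muscle markers -0.09 and -0.94. Lymphatic endothelial markers had 0.95 over 2 genes in iBAT and -0.03 in eWAT. Mesothelial markers, measured in eWAT only, had -0.25, and the single measured eosinophil marker, Prg2, had -0.87 there.

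Of the genes with several probes, Ccl1, Ccr8, Ccr9 and Ccl25 each had a probe that was not detected on any array beside detected ones, and the weaker Cx3cr1 probe was detected in eWAT only. The 3 Ccl19 probes went the same way in each tissue, from 0.16 to 0.34 in iBAT and from -0.84 to -0.54 in eWAT. The 2 Cxcr6 probes overlap and gave -0.07 and -0.03 in iBAT and -0.33 and -0.30 in eWAT.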
